A study of Mus musculus with 2 samples.

Results

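A set of 9 genes of cell adhesion and the intermediate filament cytoskeleton was followed across the cells of a pooled mouse embryonic stem cell culture: the cadherins Cdh1 and Cdh2, the adhesion molecule Epcam, the claudins Cldn4 and Cldn6, the keratins Krt8, Krt18 and Krt19, and the filament gene Vim. They were taken by symbol, and 9 of the 32285 genes in the deposited count tables matched. The study derived embryonic stem cell lines of the C3H/HeSn-Paf/J mouse strain from XX, XO and XY embryos, 3 lines of each, and pooled the 9 lines. One single-cell library (10x Genomics droplet capture, version 3.1 chemistry) was made at an early passage, here time 1, and another after 10 more passages, here time 2. Both were grown in medium with serum and LIF, the cytokine that maintains mouse pluripotency, on gelatin with irradiated mouse embryonic fibroblasts as feeder cells, and were collected with accutase. The cells of a library were not assigned to lines here, so each time point is 1 sample with no replicate, no difference between libraries or clusters was tested, and all intervals below cover counting error only.

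Epithelial cells hold to each other through E-cadherin (Cdh1), whose extracellular domain binds the same molecule on the neighbouring cell and whose tail binds catenins and actin. Mesenchymal cells usually carry N-cadherin (Cdh2) in its place, with vimentin filaments instead of keratin filaments, and the passage from the first state to the second takes place at gastrulation, when epiblast cells enter the primitive streak. Naive mouse embryonic stem cells are epithelial by their E-cadherin, the primed epiblast is a columnar epithelium, and trophoblast and extraembryonic endoderm are the first keratin-rich epithelia of the embryo. Zinc-finger factors of the Snail and ZEB families repress Cdh1 and other epithelial genes through E-box sequences of the form CACCTG.

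RefSeq promoter windows were matched for 6 of the 9 genes. The 250 bases before the RefSeq start were searched on both strands for CACCTG, which 17.2% of 32817 such windows hold. Epcam had 2 matches, 187 and 19 bases before the RefSeq start, and Krt8, Krt18, Cldn4 and Cldn6 had 1 each, at 111, 214, 14 and 93 bases. The Krt8 and Cldn6 matches lie inside the GENCODE gene models, which begin earlier than the RefSeq starts. The stretches before both starts, 110 bases for Krt8 and 134 for Cldn6, hold no CACCTG. Vim, the mesenchymal gene of the 6, had none and was the one window with TATAAA, 32 bases before its start, a motif in 12.4% of windows. The Grainyhead-like motif AACCNGTT, in 1.78% of windows, was in none of the 6. The AP-2 motif GCCNNNGGC, in 13.7% of windows, was in those of Vim and Krt18. The general E-box CANNTG, which includes CACCTG, is in 66.2% of windows. A choice of 3 epithelial promoters is printed because they show the element in the window, once near the start, once far from it, and at both places. They are in GRCm38, 5′ to 3′ along the gene's strand, and capitals mark CACCTG or its reverse complement CAGGTG. The Krt18 stretch is 214 bases long, as it ends before the earlier of the RefSeq and GENCODE starts. A match is a sequence of letters and not a shown binding site.
Epcam, chr17:87635729-87635978 (plus): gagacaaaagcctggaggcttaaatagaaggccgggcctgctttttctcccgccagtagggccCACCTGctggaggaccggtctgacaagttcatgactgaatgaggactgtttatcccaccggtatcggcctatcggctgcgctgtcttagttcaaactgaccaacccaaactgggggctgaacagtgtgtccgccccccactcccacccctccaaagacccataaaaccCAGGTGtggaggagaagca
Krt18, chr15:102027966-102028179 (plus): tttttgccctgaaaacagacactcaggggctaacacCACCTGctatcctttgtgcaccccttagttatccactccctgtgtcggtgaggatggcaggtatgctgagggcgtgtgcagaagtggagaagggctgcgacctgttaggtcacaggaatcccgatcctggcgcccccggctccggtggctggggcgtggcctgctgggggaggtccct
Cldn4, chr5:134946935-134947184 (minus): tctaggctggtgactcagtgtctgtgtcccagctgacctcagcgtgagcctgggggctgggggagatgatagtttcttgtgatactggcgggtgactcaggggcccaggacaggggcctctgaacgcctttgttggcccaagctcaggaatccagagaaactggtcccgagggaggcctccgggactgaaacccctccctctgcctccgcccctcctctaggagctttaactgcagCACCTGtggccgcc

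The libraries held 24435 and 25914 cells after filtering, at time 1 and time 2, with medians of 44135 and 50576 UMIs (unique molecular identifiers, each 1 counted transcript) per cell. Clusters were built without the 9 genes and were named from fixed marker lists, so that a name such as naive pluripotent-like rests on markers and not on adhesion genes. The naive pluripotent-like cluster had 1625 cells at time 1 and 2316 at time 2, the primed epiblast-like cluster 6967 and 552, the mesendoderm-like cluster 272 and 5368, the endoderm-like cluster 40 and 85, and the feeder fibroblast-like cluster 235 and 400. Other clusters carry the name of their leading gene, among them H19-led (6308 and 612 cells), Spry2-led (6100 and 95), Mras-led (49 and 10083), Nanos3-led (88 and 6246) and Lyz2-led (2598 and 122). A Card19-led cluster had 69 cells of time 1 with a median of 352626 UMIs, far above the library's median, so its levels come from few and unusually deep barcodes. Several clusters lay almost wholly in 1 library, and there cell state and library cannot be told apart. A total of 166 cell barcodes occurred in both libraries.

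The labels describe all cells as embryonic stem cells, and the pluripotency gene Pou5f1 stood at 815 and 896 CPM (the UMIs of a gene per 1000000 UMIs summed over the cluster) in the naive pluripotent-like cluster. The feeder fibroblast-like cluster went against that label, with the collagen gene Col1a1 at 1238 and 937.5 CPM and Pou5f1 at 88.1 and 98.2 CPM. Its 10 fibroblast markers summed to 3879 and 3126 CPM, against 11.3 and 10.6 CPM in the naive pluripotent-like cluster. The mesendoderm-like and primed epiblast-like names covered different cells in the 2 libraries. At time 1, 82.0% of the mesendoderm-like cells stayed mesendoderm-like in a finer clustering (resolution 1 against 0.5), while at time 2 only 7.27% did and 90.2% became primed epiblast-like. The primed epiblast-like cells of time 2 split into 39.3% primed epiblast-like, 33.9% in a cluster led by Krt8, Hand1 and Krt18, and 25.2% endothelial-like. For this reason the finer clusters are used for mesendoderm and primed cells where the time points are set side by side, except in the estimates of free RNA and in the figures. No cluster is called trophoblast here. A group of 16 time 1 cells had 6 of 10 trophoblast markers raised but also 4 of 5 endothelial ones, and all 16 fell into the endothelial-like cluster of the finer clustering. The cluster led by Krt8, Hand1 and Krt18 had 3 of 10 trophoblast markers raised (Hand1, Plac1 and Peg10) and is called Hand1-led. The naming rule given with the processing would call both groups trophoblast-like, and it was set aside for them.

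The genes lie on 7 chromosomes. In GRCm38 coordinates with GENCODE M21 gene models, Cdh1 is at chr8:106603351-106670246 on the plus strand, Epcam at chr17:87635979-87651129 (plus), Cldn6 at chr17:23679249-23682446 (plus), Cldn4 at chr5:134945119-134946934 (minus), Vim at chr2:13573927-13582826 (plus) and Krt19 at chr11:100140810-100148665 (minus). Krt8 at chr15:101996698-102004482 (minus) and Krt18 at chr15:102028180-102032027 (plus), which encode partners of 1 filament, are neighbours 23698 bases apart. Cdh2 at chr18:16588877-16809246 (minus) overlaps an antisense gene, Gm15485, and Krt8 overlaps Gm36026 on the other strand.

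The level of Cdh1, the epithelial cadherin, was 68.9 CPM (95% Poisson interval 67.4 to 70.5) in the naive pluripotent-like cluster at time 1 and 44.4 CPM (43.4 to 45.5) at time 2. In the feeder fibroblast-like cluster it was 19.6 CPM (17.5 to 22.0) and 9.97 CPM (8.75 to 11.3). In the finer clustering it was 65.8 and 44.2 CPM in naive pluripotent-like cells, 114 and 88.3 CPM in primed epiblast-like cells, and in the Hand1-led cluster 180 and 159 CPM. Cdh1 was thus higher in primed than in naive cells in both libraries. It was lowest in feeders in the main clustering only: in the finer one feeders had 36.6 and 20.9 CPM, beside 35.1 CPM in Card19-led cells of time 1 and 21.1 CPM in endothelial-like cells of time 2, with overlapping intervals. Its span was narrow: over the 10 clusters with at least 50 cells in a library, the highest level was 6.67-fold the lowest at time 1 and 10.3-fold at time 2. In the finer mesendoderm-like cluster Cdh1 was measured at 80.2 and 85.8 CPM, against 65.8 and 44.2 CPM in finer naive cells. In the main clustering the order of these 2 classes at time 1 turned when estimated free RNA was subtracted, as given below. The finer clusters have no such estimate. In the middle of the order neighbouring clusters were not separated: at time 1 the intervals of the mesendoderm-like, Nanos3-led, 2-cell-like, H19-led and naive pluripotent-like clusters each overlapped the next.

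The level of Cdh2, the mesenchymal and neural cadherin, was 2.51 CPM (2.22 to 2.82) and 3.00 CPM (2.73 to 3.29) in the naive pluripotent-like cluster. In the feeder fibroblast-like cluster it was 72.8 CPM (68.6 to 77.1) and 90.3 CPM (86.5 to 94.1), 29.0-fold and 30.1-fold the naive level. In the finer mesendoderm-like cluster it was 106 and 74.6 CPM. High Cdh2 was thus found in feeder and mesendoderm-like cells, and the mesendoderm-like cells carried it beside a measured Cdh1 level that was not below that of naive cells. The primed epiblast-like cells of the finer clustering had 5.86 and 9.19 CPM and the Hand1-led cells 9.92 and 17.0 CPM. The endothelial-like cells of the finer clustering, 59 and 145 in number, had 21.9 and 43.1 CPM. In the H19-led cluster Cdh2 was 1.12 and 2.00 CPM, among the lowest levels in either library.

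Epcam encodes a surface adhesion glycoprotein that is used as a marker of epithelia and of pluripotent cells. It was measured at 274 CPM (271 to 277) and 226 CPM (224 to 229) in the naive pluripotent-like cluster and at 47.1 CPM (43.8 to 50.6) and 30.6 CPM (28.5 to 32.9) in the feeder fibroblast-like cluster. The finer primed epiblast-like cluster had 460 and 377 CPM, the mesendoderm-like cluster 283 and 277 CPM and the Hand1-led cluster 508 and 519 CPM. Every embryonic cluster was above the feeders, and the endoderm-like cells went from 382 CPM at time 1, above the naive level, to 186 CPM at time 2, below it. After thinning each cell to 10000 UMIs, 89.9% and 85.1% of naive pluripotent-like cells had at least 1 Epcam UMI, against 29.4% and 16% of feeder fibroblast-like cells. Before thinning these were 99.8% and 99.7%, against 68.5% and 37.8%.

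Claudins form the strands of tight junctions. Cldn4, which seals them and is typical of trophectoderm and other epithelia, was at 41.2 CPM (40.0 to 42.4) and 18.6 CPM (17.9 to 19.3) in the naive pluripotent-like cluster, and at 11.7 CPM (10.1 to 13.5) and 4.06 CPM (3.30 to 4.94) in feeders. It was at 163 and 154 CPM in the Hand1-led cluster of the finer clustering and at 106 and 121 CPM in the H19-led cluster. In the main clustering the H19-led level was the highest at time 2, and at time 1 it came after those of the Card19-led (155 CPM) and Lyz2-led cells (127 CPM). The mesendoderm-like cells of the finer clustering were at 31.7 and 33.2 CPM. Cldn6, a claudin of embryonic epithelia, followed another order: 23.7 CPM (22.8 to 24.7) and 8.64 CPM (8.18 to 9.12) in naive pluripotent-like cells, 99.6 and 49.8 CPM in finer primed epiblast-like cells, and 148 CPM (129 to 169) and 118 CPM (109 to 128) in endoderm-like cells. In feeders Cldn6 was 11.6 CPM (9.95 to 13.4) in the first library and 1.64 CPM (1.17 to 2.23) in the second. The 2 claudins parted in endoderm-like cells, where Cldn6 was among the highest of any cluster while Cldn4 was 32.9 and 4.47 CPM.

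**Figure D1:**
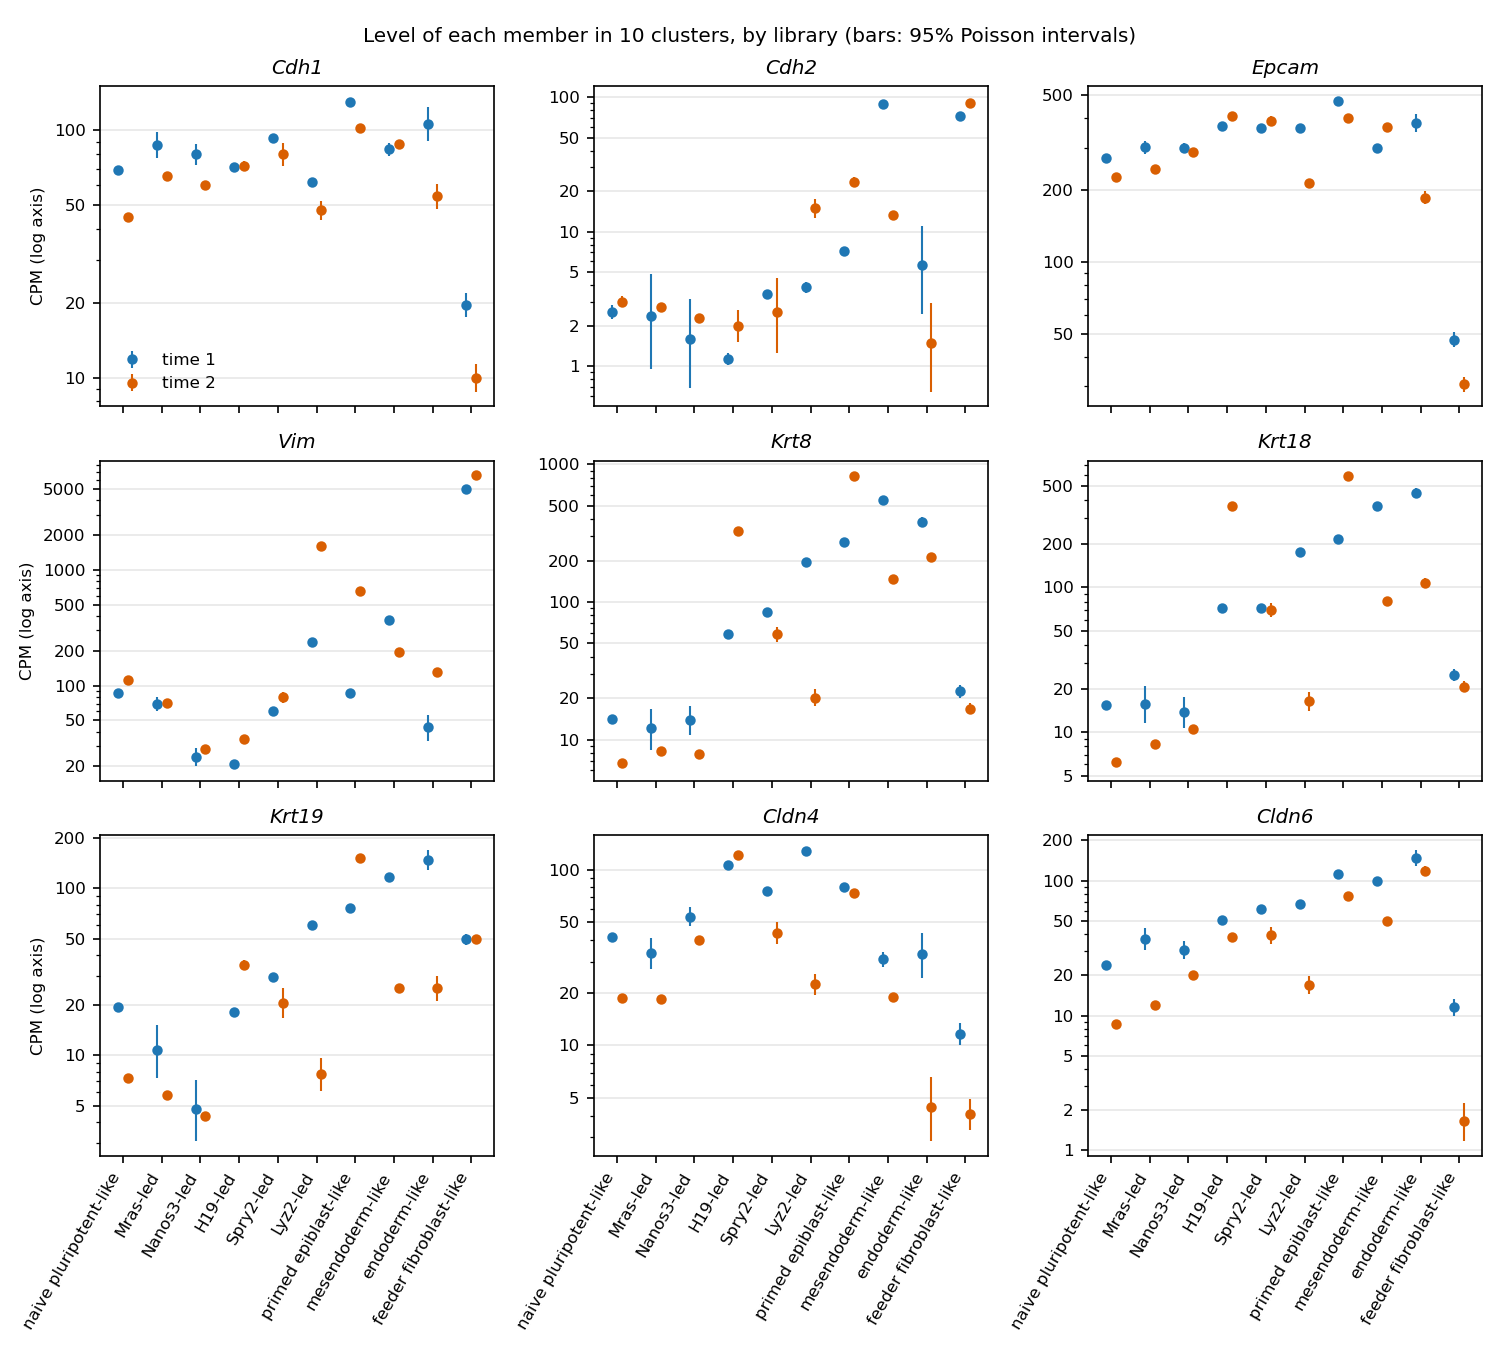
Level of each of the 9 genes (CPM, log axis) in 10 clusters of the main clustering, with time 1 and time 2 as separate points and 95% Poisson intervals as bars. Vim at 4986 and 6537 CPM sets the feeder fibroblast-like cluster apart, Epcam and Cdh1 are lowest there, and Krt8 and Krt18 are lowest or near lowest in the naive pluripotent-like cluster.

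The keratins spread over a wider range than the cadherin Cdh1. Krt8, the type II keratin of simple epithelia, was at 14.0 CPM (13.3 to 14.8) and 6.81 CPM (6.41 to 7.24) in naive pluripotent-like cells, and its type I partner Krt18 at 15.5 CPM (14.8 to 16.3) and 6.21 CPM (5.82 to 6.62). Krt8 was at 94.9 and 87.0 CPM in finer primed epiblast-like cells, 686 and 1080 CPM in mesendoderm-like cells and 870 and 1805 CPM in Hand1-led cells. Krt18 followed at 86.4 and 54.6 CPM, 448 and 491 CPM, and 685 and 1507 CPM. The steps from naive to primed to mesendoderm-like and Hand1-led cells were thus in the same order for both partners in both libraries. Krt8, Krt18 and Krt19 are among the leading genes of the Hand1-led cluster, so its keratin levels describe that cluster. In endoderm-like cells Krt8 was 380 CPM (349 to 413) and 213 CPM (201 to 226), and Krt18 447 CPM (413 to 483) and 108 CPM (99 to 117).

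Krt19, a type I keratin without the usual tail domain, was closer between primed and naive cells than its relatives were: 23.1 and 15.1 CPM in the finer primed epiblast-like cluster, against 19.6 CPM (18.7 to 20.4) and 7.30 CPM (6.88 to 7.75) in the naive pluripotent-like cluster. It was 154 and 188 CPM in mesendoderm-like cells, 246 and 271 CPM in Hand1-led cells, and 149 and 25.3 CPM in endoderm-like cells. Feeders were at 49.5 CPM (46.1 to 53.1) and 49.9 CPM (47.1 to 52.8), above naive cells each time, and at 44.7 and 37.4 CPM in the finer clustering. Few feeder cells carried it, as the tenth of cells with the most Krt19 held 73.6% and 80.9% of its thinned UMIs, against 41.7% and 34.2% for Cdh2. In feeders Krt8 was at 22.4 and 16.9 CPM and Krt18 at 25.0 and 20.7 CPM.

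Vim, the intermediate filament of mesenchymal cells, was at 4986 CPM (4951 to 5021) and 6537 CPM (6505 to 6570) in the feeder fibroblast-like cluster and at 85.9 CPM (84.2 to 87.7) and 111 CPM (109 to 113) in the naive pluripotent-like cluster. That is 58.0-fold and 58.8-fold the naive level. All feeder cells thinned to 10000 UMIs had Vim, and so did 48.5% and 57.7% of the naive cells (87.1% and 91.2% before thinning). Among embryonic clusters, finer mesendoderm-like cells had 439 and 1030 CPM and Hand1-led cells 183 and 486 CPM, with Vim and high keratins in the same clusters. The lowest levels were in the H19-led cluster, 21.1 and 34.8 CPM, and the Nanos3-led cluster, 24.1 and 28.3 CPM. Vim thus differed 4.07-fold between naive pluripotent-like and H19-led cells of time 1, both of which carried pluripotency markers. The Lyz2-led cells of time 2 had 1602 CPM of Vim, but they go against their name: Lyz2 itself was at 0.301 CPM there, against 167 CPM in the cells of time 1. In these 122 cells Pou5f1 was 652 CPM and the 10 fibroblast markers summed to 532 CPM with none at 0, and 121 of them joined the feeder cluster at the finer resolution. The part of feeder RNA in that level was not tested.

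Free RNA in the droplets bears on the low levels. Barcodes with under 2000 UMIs, 87011 at time 1 and 12277 at time 2, carried Cdh1 at 228 and 131 CPM, Krt8 at 113 and 73.2 CPM, Krt18 at 95.6 and 47.9 CPM, and Vim at 70.0 and 282 CPM. The smallest held 500 and 524 UMIs, so emptier droplets are not in this profile, and whether it holds damaged cells was not tested. Its Cdh1 was above that of the highest main cluster, primed epiblast-like, at 131 and 102 CPM, so that subtraction can take out too much Cdh1. The share of free RNA in a cluster was estimated from genes it should lack, collagens for naive cells and pluripotency genes for feeders, at 15.8% and 7.19% for naive and 9.42% and 14.4% for feeder cells. The same collagens gave 29.1% and 44.7% for primed epiblast-like, 25.2% and 6.88% for mesendoderm-like and 20.5% and 7.19% for endoderm-like cells of the main clustering, shares that would also count any collagen these cells make. Subtracting it left Cdh1 at 0 in feeders of both libraries, Epcam there at 24.0 and 7.08 CPM, and Krt19 at 51.4 and 55.7 CPM. It left Krt8 in naive cells at 0 and 1.67 CPM and Krt18 at 0.426 and 2.98 CPM. Cdh1 in feeders of both libraries and Krt8 in naive cells of time 1 were therefore within the estimated background, and Krt18 in naive cells of time 1 was near it. At time 2 a part of the naive keratin pair exceeded it. In mesendoderm-like cells of the main clustering Cdh1 was left at 35.5 CPM at time 1, under the 39.1 CPM of naive cells, and at 84.9 CPM at time 2, above their 37.7 CPM. The value of time 2 is mostly not one of mesendoderm, since 90.2% of those cells were primed epiblast-like in the finer clustering. In primed epiblast-like cells of the main clustering Cdh1 was left at 91.2 and 78.8 CPM, above naive cells in both libraries, though at time 2 only 39.3% of them were primed epiblast-like in the finer clustering. Krt19 in feeders and Cdh1 in naive cells, at 39.1 and 37.7 CPM after subtraction, were above it in both libraries. Shares of cells point to the same limit. At 10000 UMIs, 12.2% and 5.44% of naive cells and 13.2% and 3.75% of feeder cells had a Krt8 UMI, with median depths of 62426 and 58196 UMIs in naive and 57180 and 49766 in feeder cells before thinning, when the shares were 53.3% and 29.2%, and 46.8% and 17.0%.

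The ratio of Cdh1 to Cdh2 UMIs gives the cadherin balance of a cluster. Since transcript length and capture differ between genes, it is read only as a difference between clusters. The log2 ratio was 4.78 (4.61 to 4.96) and 3.89 (3.75 to 4.03) in naive pluripotent-like cells, and -1.89 (-2.07 to -1.71) and -3.18 (-3.38 to -2.99) in feeders. Feeders minus naive cells gave -6.67 at time 1 and -7.07 at time 2 on this scale. The size of this difference depended on the processing: it was -4.40 at time 1 with at least 5000 UMIs per cell and -4.69 at time 2 with doublets kept, and -5.06 and -5.59 at the finer resolution. Finer mesendoderm-like cells were at -0.41 (-0.53 to -0.28) and 0.20 (0.10 to 0.30). Feeders of the same clustering were at -0.49 (-0.62 to -0.37) and -1.70 (-1.82 to -1.58), so that the intervals of the pair overlapped at time 1 and not at time 2. Finer primed epiblast-like cells were at 4.29 and 3.26, and Hand1-led cells at 4.18 and 3.22. The H19-led cells of the main clustering were at 5.99 and 5.17, above the naive cells. Endothelial-like cells were at 1.5 and -1.03, below the mesendoderm-like cells only at time 2. The free RNA had 5.20 and 3.84, close to the naive value, so free RNA in a feeder droplet moves its balance upward.

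The sum of the 7 epithelial genes over that of Cdh2 and Vim gave a second balance, with log2 values of 2.37 and 1.48 in naive pluripotent-like cells and -4.76 and -5.63 in feeders. The H19-led cells had 5.07 and 5.22. The naive cells did not lead in this measure either, as the endoderm-like cells were at 5.07 and 2.41. Finer primed epiblast-like cells were at 4.06 and 2.20 and Hand1-led cells at 3.86 and 3.17, above finer naive cells at 2.25 and 1.49. Finer mesendoderm-like cells were at 1.72 and 1.01, under but near the finer naive value, since their keratins offset their Vim.

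**Figure D2:**
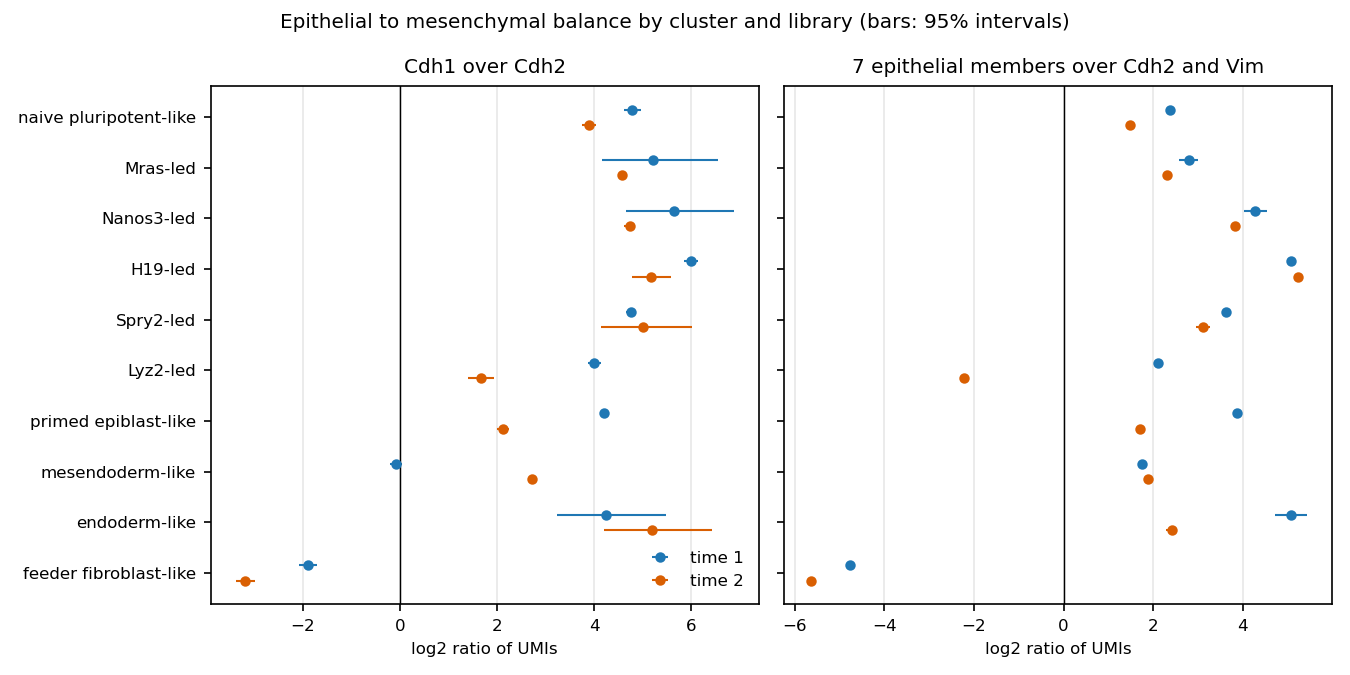
Log2 ratio of UMIs by cluster and library with 95% intervals, for Cdh1 over Cdh2 and for the 7 epithelial genes over Cdh2 and Vim. The feeder fibroblast-like cluster lies below 0 in both panels, at -1.89 and -3.18 for the cadherins, and the Lyz2-led cluster of time 2 is also below 0 in the second panel, at -2.23.

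Single cells were sorted by which cadherin they showed at 10000 UMIs. Of naive pluripotent-like cells of the main clustering, 48.9% and 34.2% had Cdh1 alone, 1.72% and 1.81% Cdh2 alone, and 1.29% and 0.95% both. Of feeder cells of the main clustering, 10.6% and 4.75% had Cdh1 alone, 37.0% and 50.8% Cdh2 alone, and 6.38% and 4.5% both. Of finer feeder cells, 29.3% and 10.9% had Cdh1 alone, 22.2% and 40.8% Cdh2 alone, and 4.67% and 5.14% both. Which cadherin was more frequent in feeders of time 1 thus depended on the clustering. Of finer mesendoderm-like cells, 23.2% and 32.6% had Cdh1 alone, 34.4% and 23.2% Cdh2 alone, and 20.3% and 17.2% both. Before thinning, 13.8% and 16.1% of naive and 80.9% and 85.2% of feeder cells had a Cdh2 UMI, and 96.0% and 87.0% of naive and 59.6% and 32.2% of feeder cells a Cdh1 UMI. Droplets with both were thus most frequent in the mesendoderm-like cells among these classes, but a Cdh1 UMI there can also come from free RNA, and that share was not tested. Krt8 and Krt18 were found together in 82.7% and 83.9% of Hand1-led cells and 78.0% and 82.3% of finer mesendoderm-like cells. In the main clustering the shares were 1.66% and 0.47% of naive and 5.11% and 1.5% of feeder cells. Finer feeder cells had 14.4% and 1.90%.

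Feeders were compared with naive pluripotent-like cells on the log2 scale of CPM + 1, over genes with at least 10 CPM in either, with a difference of at least 2-fold counted. At time 1, 3 of 9 members were higher in feeders, Cdh2 (4.39), Vim (5.84) and Krt19 (1.3), where 25.3% of all tested genes were. Another 3 were lower, Cdh1 (-1.76), Epcam (-2.51) and Cldn4 (-1.73), where 25.7% of all genes were. None of these 3 was 2-fold lower at resolution 1, with at least 5000 UMIs per cell, with doublets kept or in classes from markers alone. At resolution 1, where the feeder cluster also took in 215 Lyz2-led cells, they were -0.83, -0.96 and -0.15. At time 2, 5 of the 8 members with enough counts were higher, where 26.9% of all genes were: Cdh2 (4.51), Vim (5.87), Krt19 (2.62), Krt18 (1.59) and Krt8 (1.19). Of these, Cdh2, Krt19, Krt18 and Krt8 were under 10 CPM in naive cells (3.00, 7.30, 6.21 and 6.81 CPM). They passed the minimum only through feeders, as did Cdh2 at time 1, so they could be counted as higher but not as lower. Cldn6, at 8.64 CPM in naive and 1.64 CPM in feeder cells, passed on neither side. The 3 lower were again Cdh1 (-2.05), Epcam (-2.85) and Cldn4 (-1.95), against 24% of all genes. With doublets kept, none of these was 2-fold lower at time 2, and with the members kept in the clustering only 1 member was. At time 1 Krt8 and Krt18 were under 2-fold in the main clustering (0.64 and 0.65) and past it at resolution 1 (1.58 and 1.48).

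Fixed lists of related genes were set against the same 2 clusters. A gene was measured if it reached 10 CPM in either, so one that did so only in feeders could be counted as higher there but not as lower. One that did so only in naive cells could be counted only as lower. The counts of this list and of those below were shaped by that minimum. Of the mesenchymal cytoskeleton and matrix list, 15 of 15 measured genes were at least 2-fold higher in feeders in each library, where 25.3% and 26.9% of all tested genes were, with medians of 4.82 and 5.74 log2 against -0.10 and -0.06 over all genes. They were led by S100a4 (9.65 and 9.25), a calcium-binding protein, the smooth muscle actin Acta2 (9.27 and 8.74) and the hyaluronan receptor Cd44 (8.39 and 8.09). Of the transition factors 8 of 8 were higher, against the same background, with medians of 3.85 and 3.86, among them Twist2 (6.33 and 5.82) and Zeb2 (5.42 and 5.20). Epithelial regulators and surface genes were lower in 9 of 9 and 5 of 5 measured cases, where 25.7% and 24% of all genes were, with medians of -2.23 and -2.73. At resolution 1 the count at time 1 was 4 of 8. Klf5, a transcription factor of epithelia and pluripotent cells, was at -3.39 and -3.24. The cadherin and catenin list was mixed: Cdh11, the mesenchymal cadherin, was at 7.07 and 6.91, but at time 1 only 2 of 8 genes were higher and 2 lower, near the shares of all genes, and at time 2 3 were higher and 0 lower.

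Finer primed epiblast-like cells were set against finer naive pluripotent-like cells in the same way. At time 1, 3 of 8 members were at least 2-fold higher, against 6.28% of all genes, and at time 2 again 3 of 8, against 5.07%. The same 3 genes made up both counts: Krt8 (2.70 and 3.47), Krt18 (2.49 and 2.93) and Cldn6 (2.19 and 2.37). At time 2 all 3 were under 10 CPM in naive cells and passed the minimum only through primed epiblast-like cells. Cdh1 was higher by 0.79 and 0.98 and Epcam by 0.82 and 0.73, under 2-fold, and Vim was at -0.79 and 0.35. Around them, Cldn7 of the tight junction list was higher (2.48 and 2.35), Tagln, an actin-binding protein, was higher (3.25 and 4.18), and the keratin Krt42 was lower (-3.17 and -2.04).

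In finer mesendoderm-like cells over naive cells, 6 of 9 members were at least 2-fold higher in each library, against 11.2% and 12.5% of all genes. They were Cdh2 (4.83 and 4.25), Vim (2.31 and 3.21), Krt8 (5.54 and 7.09), Krt18 (4.85 and 6.07), Krt19 (2.97 and 4.53) and Cldn6 (2.34 and 2.80). Cdh2 in both libraries, and Krt8, Krt18, Krt19 and Cldn6 at time 2, were under 10 CPM in naive cells. They passed the minimum only through mesendoderm-like cells. Mesenchymal and epithelial members were higher together, and Cdh1 (0.28 and 0.94) and Epcam (0.13 and 0.29) were under 2-fold. Of the transition factors, 3 of 4 and 4 of 5 measured were higher, with Snai1, a repressor of Cdh1, at 2.47 and 3.05 and Twist1 at 2.05 and 1.94. The matrix list was higher in 11 of 13 and 12 of 14 genes.

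Hand1-led cells over naive cells gave 7 of 8 members at least 2-fold higher at time 1 and 9 of 9 at time 2, where 10.3% and 14.1% of all genes were. At time 2 Cdh2, Krt8, Krt18, Krt19 and Cldn6 were under 10 CPM in naive cells and passed the minimum only through Hand1-led cells. Krt8 stood at 5.88 and 7.83, Krt18 at 5.46 and 7.69, Krt19 at 3.64 and 5.05 and Cldn4 at 2.08 and 2.98. Cdh1 was at 1.44 and 1.82, Epcam at 0.97 and 1.19 and Vim at 1.05 and 2.13. Of the tight junction list 7 of 9 and 6 of 8 genes were higher, and Krt7, a simple epithelial keratin, was at 3.20 and 6.42. Endoderm-like cells over naive cells gave 4 of 8 higher in each library, against 11.2% and 15.9% of all genes: Krt8 (4.66 and 4.77), Krt18 (4.76 and 3.91), Krt19 (2.86 and 1.66) and Cldn6 (2.59 and 3.63). All of these passed the minimum at time 2 only through endoderm-like cells. Cldn4 was -0.31 and -1.84 there, the one member at least 2-fold lower, at time 2, where 10.7% of all genes were. With 40 and 85 endoderm-like cells, these levels rest on few cells.

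The H19-led cluster of time 1 parted from the naive pluripotent-like cells there by 4 of 8 members higher, against 1.99% of all genes, and 1 lower, against 2.45%. The higher ones were Krt18 (2.14), Krt8 (1.98), Cldn4 (1.34) and Cldn6 (1.08), and the lower one was Vim (-1.97). The keratin excess lay in few cells: the tenth of H19-led cells with the most Krt8 held 77.8% of its thinned UMIs, and that with the most Krt18 held 76.4%. For Cldn4 the corresponding share was 36.3%. The naive keratin levels compared with here are those within or near the estimated free RNA background, and the part of free RNA in H19-led cells was not tested.

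Between the libraries, 5 of 8 measured members were at least 2-fold lower at time 2 over all cells, against 2.69% of all genes, and none was higher, against 0.995%. They were Krt8 (147 CPM, then 57.7; log2 -1.33), Krt18 (127 CPM, then 41.0; -1.61), Krt19 (44.7 CPM, then 13.6; -1.65), Cldn4 (86.6 CPM, then 25.8; -1.71) and Cldn6 (70.8 CPM, then 23.1; -1.57). Cdh1, with 91.4 CPM and then 66.5, and Epcam, with 383 CPM and then 281, were lower by under 2-fold. Vim was higher, with 143 CPM and then 214. Keratins and claudins were thus lower over the whole culture while the adhesion molecules differed less. The make-up of the 2 libraries differed as well. In the finer clustering the keratin-rich Hand1-led cells numbered 1303 at time 1 and 285 at time 2, the primed epiblast-like cells 5856 and 5132, and the mesendoderm-like cells 241 and 396. In the fixed lists, 4 of 9 tight junction genes were lower over all cells, among them Cldn3 (-2.07), Cldn7 (-1.59) and Crb3 (-1.53), and none of 14 matrix genes was.

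Within naive pluripotent-like cells, 4 of 8 members were at least 2-fold lower at time 2, against 1.01% of all genes, and 0 were higher, against 0.249%: Krt18 (-1.20), Krt19 (-1.31), Cldn4 (-1.11) and Cldn6 (-1.36). At time 2 Krt18, Krt19 and Cldn6 were under 10 CPM, so they passed the minimum only through time 1. Krt8 was at -0.94 and Cdh1 at -0.62, whereas Vim (0.37) and Cdh2 (0.19) were slightly higher. Krt18 lies partly or wholly within the free RNA background given above, and after its subtraction turned to 1.48. The free RNA of time 2 had itself less Krt18, Cldn4 and Cldn6 than that of time 1, 47.9 against 95.6 CPM, 31.0 against 105 CPM and 20.8 against 97.7 CPM. After subtraction Cldn4 was at 29.1 and 17.6 CPM (-0.69), Cldn6 at 9.81 and 7.70 CPM (-0.31) and Krt19 at 17.4 and 6.68 CPM (-1.26) in naive cells. Only Krt19 of the 4 members then stayed at least 2-fold lower.

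Other clusters were compared between the libraries in the same way, and whether they differed from naive cells in this was not tested. In the Lyz2-led cluster 5 of 9 members were lower, against 3.47% of all genes, and 2 higher, against 5.35%. The lower ones were Krt8 (-3.20), Krt18 (-3.35), Krt19 (-2.82), Cldn4 (-2.46) and Cldn6 (-1.93), and the higher ones Vim (2.73) and Cdh2 (1.72). This name too covered different cells, since 89.4% of its time 1 cells fell into a Notch2-led finer cluster and 99.2% of its time 2 cells into the finer feeder cluster. In feeders 2 of 9 members, Cldn4 (-1.33) and Cldn6 (-2.25), were at least 2-fold lower at time 2, against 1.12% of all genes. Both passed the minimum only through time 1. Subtracting free RNA left them at 1.98 and 2.61 CPM in feeders of time 1, near background, and at 0 at time 2. In finer primed epiblast-like cells Vim was higher (1.47; 1 of 8, against 0.708%) and Cldn4 lower (-1.46; 1 of 8, against 1.54%), and Krt8 was at -0.12. In finer mesendoderm-like cells only Vim passed (1.23; 1 of 9, against 1.04%). In Hand1-led cells Vim (1.4), Krt8 (1.05) and Krt18 (1.14) were higher (3 of 9, against 1.02%). Vim was at least 2-fold higher at time 2 in each of these 3 finer clusters, as it was in the free RNA, with 70.0 and then 282 CPM. Cldn4 was lower at time 2 in the free RNA, with 105 and then 31.0 CPM. The part of free RNA in these Vim levels and in the Cldn4 levels of finer primed epiblast-like cells was not tested. In the endoderm-like cluster 4 of 8 were lower, against 7.26%: Epcam (-1.04), Krt18 (-2.04), Krt19 (-2.51) and Cldn4 (-2.63). Vim was higher there (1.58), 1 of 8 members against 5.66%. The markers of this cluster, of 40 and 85 cells, differed as well. Its endoderm markers summed to 1913 and 4048 CPM and its naive markers to 4558 and 2426 CPM, so the name may cover different cells.

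The H19-led cluster of the main clustering had Krt8 at 58.5 CPM (57.7 to 59.3) and 330.0 CPM (323 to 337) and Krt18 at 71.7 and 367 CPM, a difference of 2.48 and 2.34 log2 (2 of 8 members, against 0.514% of all genes). The difference lay in few cells: 2.17% of the cells at time 1 and 12.3% at time 2 had 5 or more Krt8 UMIs after thinning. The tenth of cells with the most Krt8 held 77.8% and 85.6% of its UMIs. At the finer resolution 83 of the 612 cells of time 2 went to the Hand1-led cluster, and in the finer cluster led by Gm9, which held most of the rest, Krt8 was at 0.16 and Krt18 at -0.19 between the libraries.

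**Figure D3:**
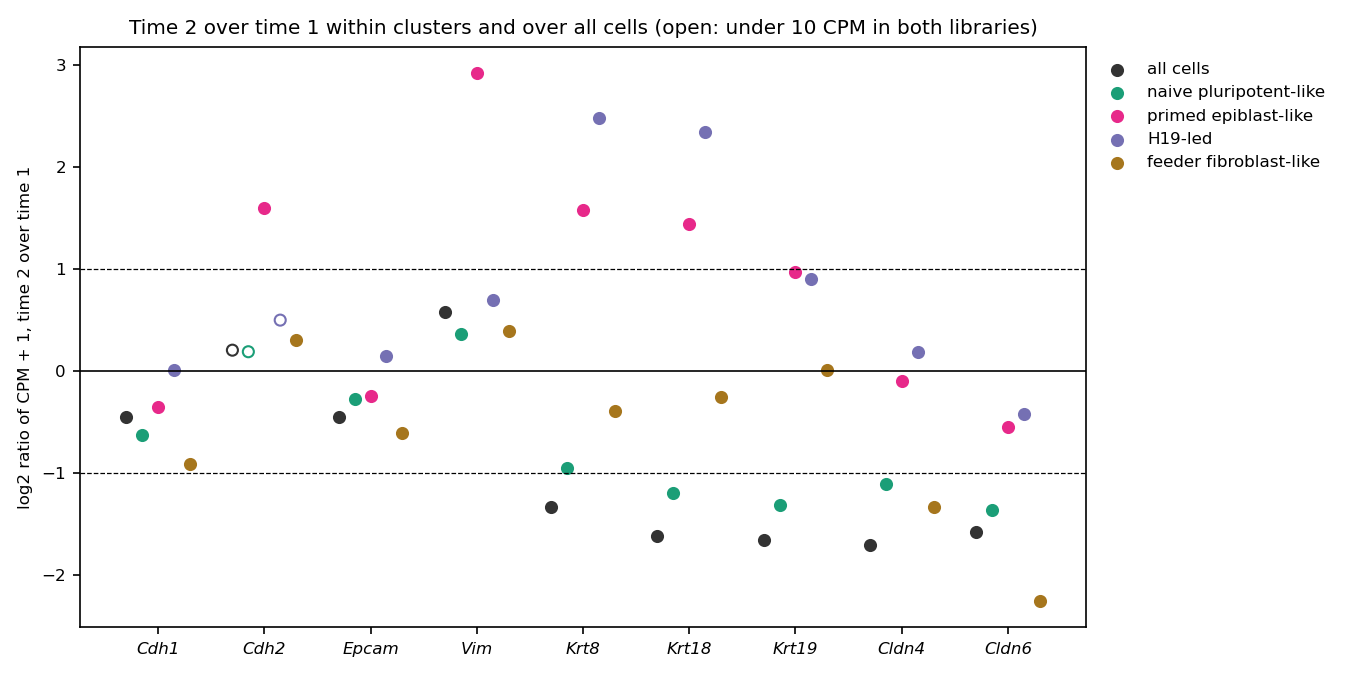
Log2 ratio of CPM + 1, time 2 over time 1, for the 9 genes over all cells and within clusters, with open symbols where both libraries were under 10 CPM. Keratins and claudins lie at -1.33 to -1.71 over all cells; the primed epiblast-like points are of the main clustering, whose time 2 cells split as described above, and put Vim at 2.91 where the finer cluster has 1.47.

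The cells that supplied each transcript were uneven. Feeder fibroblast-like cells gave 44.4% and 48.6% of all Vim UMIs and 16.5% and 21.6% of Cdh2 UMIs while holding 1.27% and 1.59% of all UMIs. In the finer clustering the Hand1-led cells gave 44.2% and 32.0% of Krt8 UMIs from 7.47% and 1.02% of all UMIs. Finer mesendoderm-like cells gave 4.15% and 23.8% of Krt8 UMIs from 0.891% and 1.27% of all UMIs, and finer primed epiblast-like cells 15.4% and 29.6% from 23.9% and 19.6%. The level of Vim or Krt8 over the unsorted culture thus came in large part from clusters that held a small share of its RNA. The finer mesendoderm-like cells also gave 16.8% and 14.3% of Cdh2 UMIs.

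Pairs of members were followed over 20 sums of 1 cluster in 1 library, which share 2 libraries and differ in depth, so the correlations describe these sums only. On log levels Krt8 and Krt18 had a Pearson r of 0.98, Cdh1 and Epcam 0.93, and Cdh2 and Vim 0.87. Epcam and Vim had -0.73, Cdh1 and Vim -0.66, and Cdh1 and Cdh2 -0.43. The opposed pairs rested on the feeders. Over the 18 sums without the feeder fibroblast-like cluster, Epcam and Vim had -0.14, Cdh1 and Vim -0.09, and Cdh1 and Cdh2 0.34. The pairs of 1 kind held there, with Krt8 and Krt18 at 0.98, Cdh2 and Vim at 0.75, and Cdh1 and Epcam at 0.73, and Krt8 and Cldn6 were at 0.86. Over these 18 sums the 2 cadherins thus did not stand in opposite order. The 18 are not all embryonic, as they keep the Lyz2-led cells of time 2, and 121 of those 122 cells joined the finer feeder cluster.

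Across single cells within a cluster, in 14 sets of at least 200 cells of 1 cluster and library, Krt8 and Krt18 had a median r of 0.76, from 0.15 in naive pluripotent-like cells of time 1 to 0.95 in H19-led cells of time 2. Epcam and Vim had a median of -0.18, with all 14 values negative (-0.64 to -0.05). Values near 0, such as the median of -0.0021 for Cdh1 and Cdh2, are not read in counts this sparse.

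**Figure D4:**
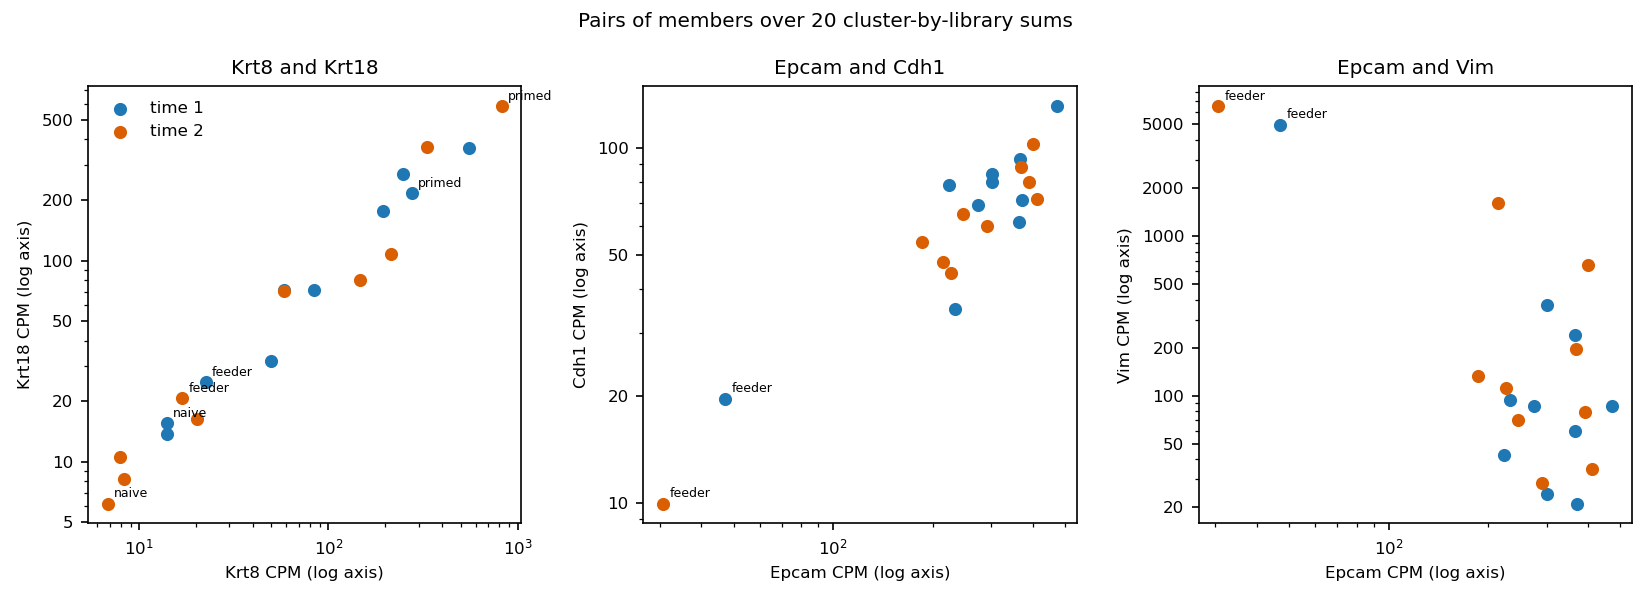
CPM of pairs of members on log axes, 1 point per cluster and library (20 points), coloured by time point. Krt8 and Krt18 lie along 1 line (r of 0.98), and the 2 feeder points stand far from the other 18 in the panels of Epcam with Cdh1 and Epcam with Vim.

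The genes nearest to each member in log level over the same 20 sums were taken from 7840 genes by Pearson r. Cldn4 was nearest to its neighbour in function Cldn3 (0.979), another claudin, followed by Psors1c2 and Rab25. Vim was nearest to Nsg1 (0.972), Lhfp and Fkbp10, Cdh2 to Gpm6b (0.955), Pcdh7 and Zfp703, and Epcam to Mtmr14 (0.964), Cbx7 and Rcl1. Cdh1 was nearest to Seh1l (0.948), Cldn6 to Car4 (0.941), Krt8 to Tor2a (0.902), Krt19 to Wnt4 (0.896) and Krt18 to Trabd (0.895).

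Cdh1 lies on chromosome 8, which some cells carried at a raised share of UMIs. Cells with at least 1.3 times the median share of naive time 1 cells, computed without the 9 genes, made up 1.48% and 3.28% of naive pluripotent-like cells, 6.45% and 19.1% of H19-led cells, 66.7% of Mras-led cells at time 2 and 73.1% of Nanos3-led cells at time 2. Such a gain is read from RNA and was not measured on DNA. Cells with it had more Cdh1 than cells of the same cluster and library without an autosomal gain in each of 6 sets. At time 1 H19-led cells had 92.8 CPM with the gain against 69.3 CPM without, and Spry2-led cells 114 against 90.5 CPM. At time 2 the naive pluripotent-like cells had 59.3 against 43.9 CPM, H19-led cells 110.0 against 62.4 CPM, Mras-led cells 67.1 against 57.8 CPM and Nanos3-led cells 63.2 against 48.2 CPM. The log2 differences of Cdh1, 0.42, 0.33, 0.43, 0.81, 0.21 and 0.38 in that order, lay beside medians over chromosome 8 genes of 0.48, 0.46, 0.38, 0.48, 0.23 and 0.32. Cdh1 was thus near these medians, with H19-led cells of time 2 above theirs. The cells were selected by their share of chromosome 8 UMIs, so the medians are raised in part by the selection itself, while Cdh1 was left out of it. Of the 612 H19-led cells of time 2, 83 were Hand1-led in the finer clustering. The part of cell type in the Cdh1 difference of that set was not tested.

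Members on other chromosomes differed by gain without 1 direction. Krt8 and Krt18 were lower with the gain in H19-led (-1.19 and -1.35) and Spry2-led cells (-1.63 and -1.5) of time 1, 2 of 8 members in each, against 0.799% and 1.08% of all genes. In H19-led cells of time 2 they were higher (1.58 and 1.46), where 3 of 8 members passed against 1.27% of all genes. Cells with the gain come from whichever lines carried it, and line and gain cannot be told apart. The part of the Hand1-led cells in the keratin differences of H19-led cells of time 2 was not tested.

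Lines also differ in X dosage. Among cells with no Y-linked UMI, 95.8% and 95.7% of naive pluripotent-like cells had an X share of at least 1.2 times that of Y-positive cells, against 67.6% and 76.5% of H19-led cells and 2.09% of Mras-led cells at time 2. In the naive class to which the other clusters were compared, the cells with no Y-linked UMI, 1516 of 1625 and 2224 of 2316, were thus almost all X-high. Among them, X-high cells had Krt19 at 20.2 CPM against 9.93 CPM in the 63 X-low cells of time 1. At time 2 Krt19 differed by 0.91, but it was at 7.30 CPM over all naive pluripotent-like cells, under the minimum of 10 CPM. Cldn6 was lower in X-high cells (-0.49 and -0.62), and so was Cdh1 (-0.18 and -0.37). No member of 8 at time 1 or of 5 at time 2 was 2-fold higher, where 0.822% and 1.54% of all genes were. In H19-led cells of time 1 Krt18 was higher in X-high cells (1.08; 1 of 8, against 1.27% of all genes).

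**Figure D5:**
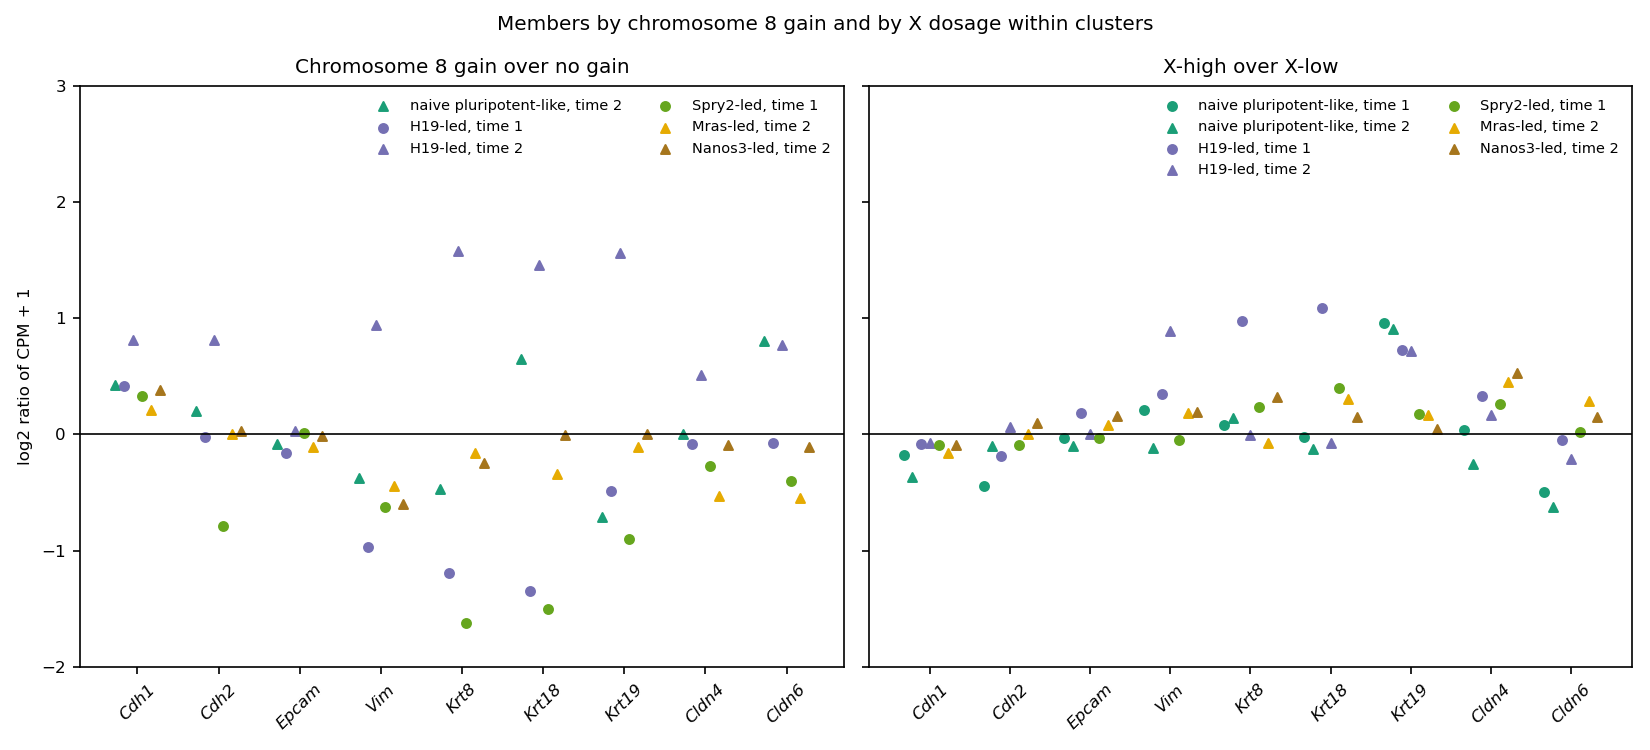
Log2 ratio of CPM + 1 for the 9 genes, by chromosome 8 gain and by X dosage, 1 series of points per cluster and library. Cdh1 lies above 0 in each chromosome 8 series (0.21 to 0.81) and at or below 0 in each X series, while the keratins spread to both sides in the first panel.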

How the data were processed

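The files deposited by the authors hold UMI counts as whole numbers, 1 matrix of genes and barcodes for each of 2 libraries, made with Cell Ranger 6.1.2 per the submitters' processing notes, with GRCm38 (mm10) as the named build. The deposited counts are not normalised. Of 32285 genes, 32158 matched GENCODE M21. The lipid tags that mark lines were not used here. In each library the 20000 largest barcodes were taken, and a barcode counted as a cell when it reached 0.1 of their 99th percentile (18315 and 18646 UMIs), showed 1000 genes or more, and kept mitochondrial UMIs to 10% or less. Scrublet's automatic thresholds marked 2.14% and 0.294% of cells, so a fixed score of 0.25 was chosen after seeing them, and 1301 and 2335 doublets were removed. Cells were clustered (scanpy 1.11.5, igraph 0.11.9) on 2000 variable genes without the 9 genes and the fixed lists, 30 components, 15 neighbours and Leiden resolution 0.5. A cluster took a marker class when at least 3 of its markers were 2-fold higher than in the rest at 5 CPM or more and at least 1 was in its top 10 genes, a rule set after the clusters were seen. The name trophoblast-like, which the rule also gave, was not used, as described above. Counts were summed per cluster and library and given as CPM with exact Poisson intervals. Shares of cells have thinned counts (10000 UMIs) behind them. Differences are log2 of CPM plus a pseudocount of 1 for genes with at least 10 CPM on either side, with no test and no p-value, since each time point has 1 library. A gene under 10 CPM on 1 side passes only through the other side, where it is higher, so it cannot be counted the other way. The text names all 9 members, at most 3 genes each way per list and comparison, and the likest genes by correlation. The scripts were tested on simulated data. The members and the 6 lists (80 genes) were chosen with earlier results of these data known. Promoter sequences are from RefSeq (GRCm38). R 4.3.3 with edgeR 4.0.16 gave the TMM alternative.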

Additional observations from a re-analysis of the deposited data

How the results depend on the processing

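No paired analysis was possible because each time point had 1 library, so no replicate numbers pair the time points; a pairing by line was not attempted. The log2 differences of at least 2-fold were each recomputed under several alternatives, which gave 278 recomputed values, some of them of the same difference; 274 kept their direction and 240 stayed at least 2-fold. Not every alternative could turn a value: leaving out the minimum CPM only changes which genes are counted and moved no value. TMM scaling moved values by only 0.00608 to 0.172. The 4 recomputed values that turned belong to 3 differences. Cldn4, feeders over naive cells at time 1, turned to 0.36 with at least 5000 UMIs per cell and 0.28 with doublets kept. Cldn6, feeders over naive cells at time 2, turned to 0.39 with doublets kept. It was under the minimum of 10 CPM in both clusters and so is not in the counts of members given here. Krt18 in naive cells, time 2 over time 1, turned to 1.48 with free RNA subtracted. The cadherin balance of feeders minus naive cells (-6.67 at time 1) was -4.40 with at least 5000 UMIs, -4.66 with doublets kept, -5.06 at resolution 1, -6.34 with the members kept in the clustering and -4.75 in classes from markers alone. At time 2 (-7.07) these were -6.09, -4.69, -5.59, -5.50 and -5.93, and -7.65 with a doublet score threshold of 0.15, which was chosen after seeing the data. Members at least 2-fold higher in feeders at time 1 (3) were 5 with at least 5000 UMIs, doublets kept, resolution 1, marker classes or free RNA subtracted, and at time 2 (5) they were 3 with a pseudocount of 10. Members lower in feeders at time 1 (3) were 0 with at least 5000 UMIs, doublets kept, resolution 1 or marker classes, and at time 2 (3) 0 with doublets kept and 1 with the members kept in the clustering. Members lower in naive cells at time 2 (4) were 2 with doublets kept or marker classes, 0 with a pseudocount of 10 and 1 with free RNA subtracted. The causes were not tested, apart from the pseudocount of 10, which shrinks differences of low genes by construction. Depth limits the levels near free RNA: Krt8 and Krt18 in naive cells and Cdh1, Cldn4 and Cldn6 in feeders.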
